A study of Mus musculus with 2 samples.

Results

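Complement is a cascade of secreted blood proteins, and 9 of its genes were followed here in single cells of the mouse heart: the 3 chains of the recognition molecule C1q (C1qa, C1qb and C1qc), the proteases that C1q carries (C1ra and C1s1), the substrates C4b and C3, properdin (Cfp) and the C1 inhibitor (Serping1). The members were the rows with these symbols in the gene table shared by both libraries, 9 of 31053 genes. The data were droplet single-cell RNA counts of heart non-cardiomyocytes, sorted as viable single cells after enzymatic digestion, from male C57BL6/J wild-type mice. One library came from hearts taken 20 days after transverse aortic constriction (TAC), a surgical narrowing of the aorta that loads the left ventricle with pressure, and one from hearts taken 20 days after sham surgery. The labels used here give neither the age nor the number of hearts in a library. With 1 library per group there was no replicate check and no test, and every interval below is a 95% interval that covers counting error only.

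In the classical pathway, C1q binds immune complexes, dying cells or other surfaces, and the attached C1r and C1s then cleave C4 and C2. The products cleave C3, the central component, whose fragments coat surfaces and draw in phagocytes. Properdin steadies the C3-cleaving enzyme of the alternative pathway, and the C1 inhibitor shuts down C1r and C1s. The liver makes most circulating complement, while C1q is known to come mainly from tissue macrophages and related myeloid cells, and fibroblasts are known to make C1r, C1s and C3.

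The 3 C1q genes lie side by side on chromosome 4 (mm10), all on the minus strand: C1qb at chr4:136880129-136886187, C1qc at chr4:136889804-136893065 and C1qa at chr4:136895917-136898803. C1ra (chr6:124512405-124523443, plus strand) and C1s1 (chr6:124530345-124542359, minus strand) are neighbours on chromosome 6, and C4b (chr17:34728380-34743882) and C3 (chr17:57203970-57228136) are on the minus strand of chromosome 17. Serping1 is at chr2:84765387-84775444 and Cfp at chrX:20925454-20931555, both on the minus strand. All 9 are annotated as protein coding. RefSeq promoters of the build GRCm38.p6, each 250 bases before to 50 bases after an annotated start, were found for 6 of the 9. The 4 printed here belong to 2 neighbouring pairs whose counts, among cells with a class name, lay mostly in different classes. These were macrophage-like cells for C1qb and C1qc and fibroblast-like cells for C1ra and C1s1. C1ra also had the motif match below. They are C1qb at chr4:136886151-136886450 (minus), C1qc at chr4:136892865-136893164 (minus), C1ra at chr6:124512371-124512670 (plus) and C1s1 at chr6:124542310-124542609 (minus), written 5′ to 3′ on the gene's strand.
C1qb: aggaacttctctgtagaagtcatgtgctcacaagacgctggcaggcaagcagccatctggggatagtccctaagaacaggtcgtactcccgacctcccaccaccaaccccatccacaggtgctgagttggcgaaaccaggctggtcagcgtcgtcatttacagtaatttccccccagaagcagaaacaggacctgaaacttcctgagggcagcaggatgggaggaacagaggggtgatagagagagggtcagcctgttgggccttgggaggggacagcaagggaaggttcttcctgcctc
C1qc: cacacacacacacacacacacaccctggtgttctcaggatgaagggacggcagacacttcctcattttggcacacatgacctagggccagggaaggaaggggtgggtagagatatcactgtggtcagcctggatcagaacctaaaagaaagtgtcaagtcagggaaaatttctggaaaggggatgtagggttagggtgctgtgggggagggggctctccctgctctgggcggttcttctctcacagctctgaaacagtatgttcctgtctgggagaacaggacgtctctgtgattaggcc
C1ra: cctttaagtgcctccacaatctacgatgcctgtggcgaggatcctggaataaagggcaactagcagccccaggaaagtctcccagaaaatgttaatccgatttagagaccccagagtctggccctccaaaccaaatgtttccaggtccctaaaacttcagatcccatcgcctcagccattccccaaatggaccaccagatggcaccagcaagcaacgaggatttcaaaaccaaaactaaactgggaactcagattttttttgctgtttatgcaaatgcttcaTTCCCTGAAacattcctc
C1s1: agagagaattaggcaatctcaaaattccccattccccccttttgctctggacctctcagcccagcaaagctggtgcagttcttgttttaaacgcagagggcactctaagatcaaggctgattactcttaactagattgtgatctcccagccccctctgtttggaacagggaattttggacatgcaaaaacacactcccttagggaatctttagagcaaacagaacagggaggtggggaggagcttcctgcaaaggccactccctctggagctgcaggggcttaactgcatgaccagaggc
Capitals mark the one match to TTCNNNGAA, the core that STAT factors are known to bind, in the C1ra window. The motif reads the same on both strands and occurred in 2726 of 32851 RefSeq promoters of this length (8.30%). The core of the interferon-stimulated response element was searched on both strands and had no match in the promoters of the 6 members, against 1131 of the 32851 (3.44%).

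The TAC library held 8901 barcodes with 96003109 unique molecular identifiers (UMIs, counted RNA molecules), and the sham library 8426 barcodes with 42490230 UMIs. After cell filters and doublet removal 7854 TAC and 7894 sham cells were left, with medians of 11158 UMIs in TAC and 4881.5 UMIs in sham cells. The libraries shared 15 barcodes. Clusters over both libraries, made with every complement gene kept out, were named from marker genes: 5350 TAC and 6090 sham cells were fibroblast-like, 634 and 948 macrophage-like, 595 and 148 endothelial-like and 322 and 72 lymphatic endothelial-like. Smaller classes included endocardial-like (74 TAC, 67 sham), B cell-like (50 and 51) and pericyte-like cells (83 and 43). A further 693 TAC and 436 sham cells were in clusters that the marker rule left without a name. Levels below are counts of a gene scaled by the total UMIs of the class (CPM, the usual depth-scaled unit). They are 3′ counts without a length correction, compared for 1 gene across classes. The shares of the C1q chains are shares of counted molecules.

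C1q and properdin transcripts were highest in macrophage-like cells, and C1r, C1s, C3 and the C1 inhibitor in fibroblast-like cells among the classes of at least 50 cells in both libraries. C4b was the only one of the 9 with over 10% of its UMIs in each of these 2 classes in both libraries. Fibroblast-like cells held 96.4% of C1ra UMIs in TAC and 97.0% in sham, 96.6% and 97.2% of C1s1, 93.7% and 97.3% of C3, and 96.8% and 97.6% of Serping1. They held 70.5% of C4b UMIs in TAC and 50.5% in sham, and macrophage-like cells held 12.2% in TAC and 29.5% in sham. These shares depend on how many cells of each class were captured as well as on the level in a cell. Pericyte-like cells, with 43 in sham, lie outside this ranking. Their C1s1 was at 403 CPM in TAC, against 311 CPM in fibroblast-like cells.

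**Figure D1:**
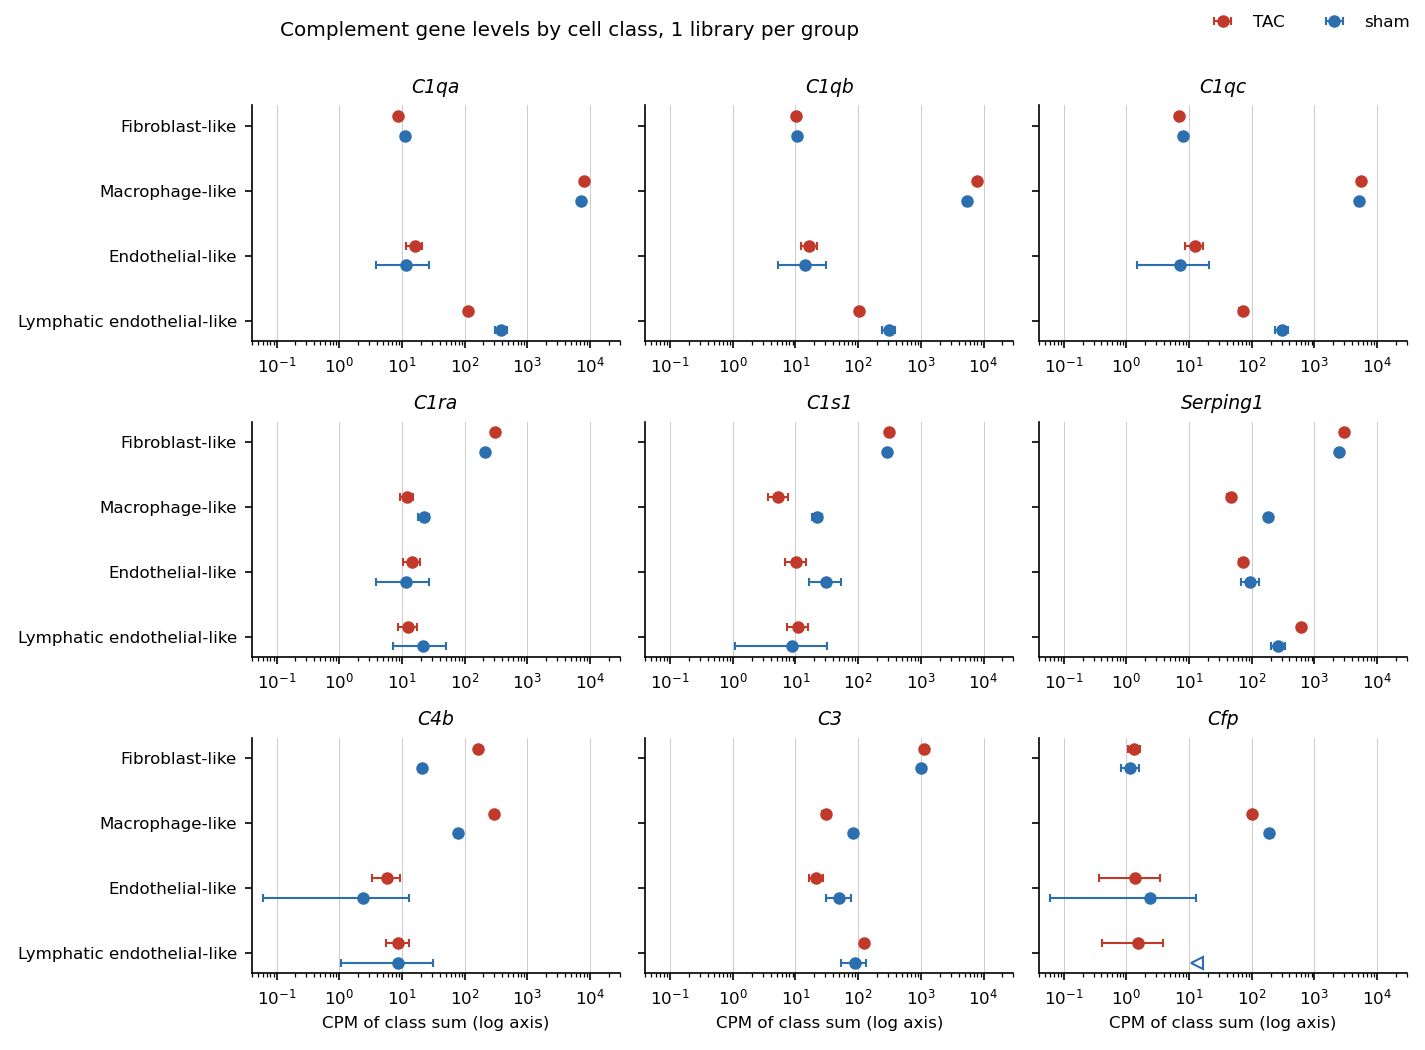
Level of each of the 9 genes (CPM of the summed UMIs of a class, log axis) in fibroblast-like, macrophage-like, endothelial-like and lymphatic endothelial-like cells, TAC and sham, with exact 95% Poisson intervals. The C1q chains and Cfp peak in macrophage-like cells and C1ra, C1s1, C3 and Serping1 in fibroblast-like cells.

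The 3 C1q chains, which assemble into 1 molecule, each had a higher level in TAC than in sham macrophage-like cells taken as a whole. C1qa stood at 8162 CPM in TAC and 7122 CPM in sham macrophage-like cells, and C1qc at 5594 CPM in TAC and 5092 CPM in sham, ratios of 1.15 (1.13 to 1.16) and 1.10 (1.08 to 1.12). With each cell gated on its own markers C1qc was level, at 5029 CPM in TAC and 5035 CPM in sham. C1qb showed the widest gap of the 3, with 7903 CPM in TAC against 5489 CPM in sham (ratio 1.44, 1.42 to 1.46). C1qb accordingly made up 36.5% of C1q UMIs in TAC and 31.0% in sham macrophage-like cells, while C1qa made up 37.7% and 40.2% and C1qc 25.8% and 28.8%. With each macrophage-like cell thinned to 3100 UMIs, 99.8% of 598 TAC cells and 99.9% of 778 sham cells had at least 1 C1qa UMI, so nearly every cell of the class contributed (99.8% of all TAC and 99.8% of all sham cells unthinned). Over these thinned cells the chains varied together, with Spearman's rho between 0.48 and 0.57 for the 3 pairs in both libraries, a description over cells that share a library and a depth.

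Macrophage-like cells of the TAC and sham libraries came mostly from different clusters, and a cluster made mostly of 1 library may be that library rather than a type. One cluster led by Ighg2c, Ccl12 and Cd74 held 91.8% of TAC macrophage-like cells (55 sham cells), and one led by Mgl2, Cxcl2, Pf4 and Folr2 held 94.2% of sham macrophage-like cells (52 TAC cells). Comparing the libraries inside a cluster, which was chosen after the data were seen, C1qb was higher in TAC in both, at 7944 CPM in TAC against 5590 CPM in sham in the first (ratio 1.42) and 6963 CPM in TAC against 5481 CPM in sham in the second (ratio 1.27). C1qa and C1qc were not: the ratio of C1qa was 1.17 in the first and 0.898 in the second, and that of C1qc 1.11 and 0.976 (0.922 to 1.03).

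A sizeable part of the C1q signal lay in cells without a class name. Macrophage-like cells held 48.9% of C1qa UMIs in TAC and 66.7% in sham, and unnamed cells held 49.9% in TAC and 32.4% in sham. The unnamed clusters of at least 50 cells had C1qa at 3464 to 6975 CPM in TAC (4 clusters, median depths of 1771 to 15271 UMIs a cell) and at 5673 to 6062 CPM in sham (2 clusters). The 4 TAC clusters were led by S100a8, S100a9 and Il1b (2 clusters, one of them with Retnlg and Csf3r), by the T cell genes Ccl5, Trbc2 and Cd3g, and by the endothelial genes Fabp4, Rbp7 and Flt1, and the 2 sham clusters by the natural killer cell genes Gzma, Nkg7 and Ncr1 and by the B cell genes Ighm and Cd79a. Over both libraries, macrophage markers were high in the cluster with Retnlg and in the T cell one. Their median there was 30% or more of the macrophage-like level. Of cells gated on their own markers, 15 of 18 were gated as macrophages in the other S100a8-led cluster and 23 of 38 in the B cell one. Gates were mixed in the endothelial and natural killer ones. The part of macrophage RNA in these C1qa levels was not tested. For Cfp the unnamed cells held 57.0% of the UMIs in TAC and 37.6% in sham, against 36.8% in TAC and 59.8% in sham in macrophage-like cells.

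In the other named classes the C1q transcripts were far below their macrophage-like level. In fibroblast-like cells C1qa was at 8.75 CPM in TAC and 11.2 CPM in sham, C1qb at 10.3 and 10.5 CPM, and C1qc at 6.88 and 8.01 CPM. Thinned to 3800 UMIs, 3.02% of TAC and 3.90% of sham fibroblast-like cells had a C1qa UMI (9.78% of TAC and 5.37% of sham cells unthinned, at median depths of 12075.5 UMIs in TAC and 4980 UMIs in sham). The share in TAC endothelial-like cells at the same depth was 5.78%, above the TAC fibroblast share, and with 35 sham endothelial-like cells at this depth there was no usable sham counterpart. C1qa, C1qb and C1qc made up 33.7%, 39.7% and 26.5% of C1q UMIs in TAC fibroblast-like cells and 37.6%, 35.4% and 27.0% in sham ones. The TAC intervals, 31.5% to 36.0% for C1qa and 37.4% to 42.1% for C1qb, did not hold the TAC macrophage-like shares of 37.7% and 36.5%. As a percentage of the macrophage-like level, C1qa, C1qb and C1qc stood at 0.107%, 0.130% and 0.123% in TAC fibroblast-like cells. In sham ones they stood at 0.157%, 0.192% and 0.157%. Macrophage markers in fibroblast-like cells stood at a median of 0.146% (TAC) and 0.212% (sham), and their part in the C1q values was not tested. Lymphatic endothelial-like cells had C1qa at 113 CPM in TAC and 378 CPM in sham, C1qb at 103 CPM in TAC and 312 CPM in sham, and C1qc at 71.5 CPM in TAC and 299 CPM in sham. Macrophage markers in the same cells stood at a median of 1.62% (TAC) and 4.68% (sham) of their macrophage-like level. The markers moved with the C1q levels, and their part in that difference was not tested.

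**Figure D2:**
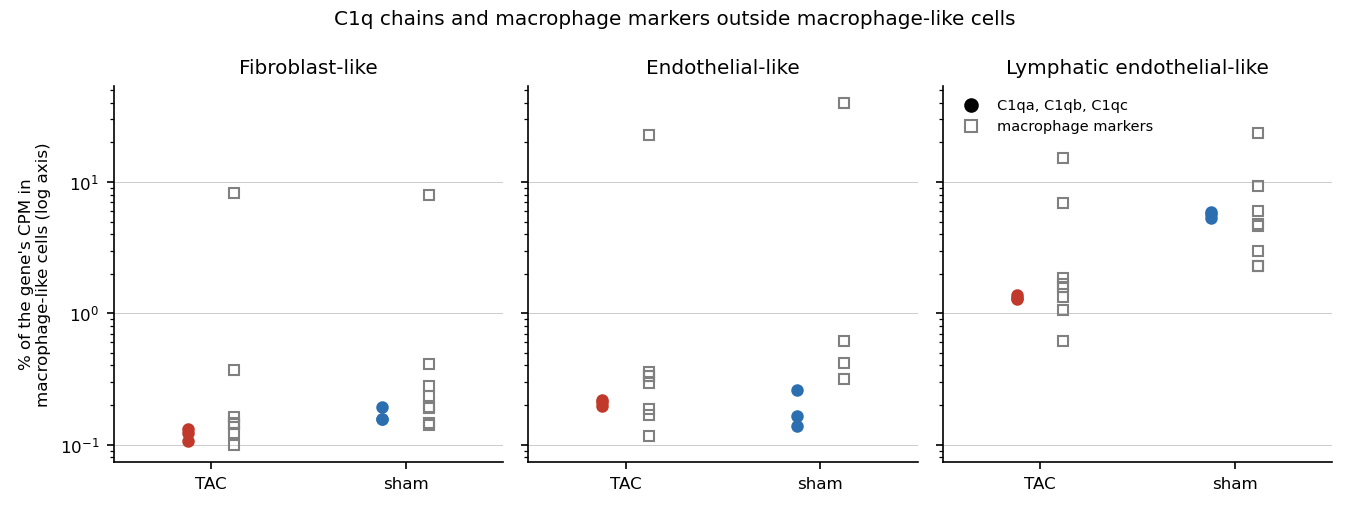
C1q chains and macrophage markers outside macrophage-like cells, each as a percentage of its level in macrophage-like cells of the same library, TAC and sham (log axis; markers at 0 are not drawn). In lymphatic endothelial-like cells the markers have medians of 1.62% in TAC and 4.68% in sham.

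Properdin went the other way from C1q in macrophage-like cells. Cfp was at 101 CPM in TAC and 186 CPM in sham, a ratio of 0.545 (0.491 to 0.604). It was lower in TAC in both shared clusters, at 96.6 CPM in TAC against 189 CPM in sham (ratio 0.512) and at 102 CPM in TAC against 156 CPM in sham (ratio 0.650). At 3100 UMIs a cell, a Cfp UMI was seen in 14.7% of TAC macrophage-like cells and in 33.8% of sham ones (32.2% and 40.4% unthinned), against 0.522% of TAC and 0.326% of sham fibroblast-like cells.

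Fibroblast-like cells, too, came mostly from different clusters in the 2 libraries. In TAC, a cluster led by Mfap4, Smoc2 and Col8a1 held 45.2% of them, one led by Mfap4, Col1a1, Cilp and Comp 29.7% and one led by Wisp2 and Sfrp1 16.0%. In sham, clusters led by Gsn, Clec3b and Myoc, by Dpep1, Gsn and Inmt, and by Smoc2 and Hsd11b1 held 28.6%, 21.5% and 20.1%. Within-class ratios therefore compare mixtures of clusters, and the values inside the 3 clusters with at least 50 cells in each library are given for C1ra, C1s1, Serping1, C4b and C3.

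C1r and C1s, the proteases that act within the C1 complex, were both expressed in fibroblast-like cells. C1ra was at 311 CPM in TAC and 209 CPM in sham, a ratio of 1.49 (1.45 to 1.53), and C1s1 at 311 CPM in TAC and 285 CPM in sham, a ratio of 1.09 (1.06 to 1.12). C1ra was higher in TAC in all 3 fibroblast clusters with at least 50 cells in each library, with ratios of 1.38 to 1.68, whereas C1s1 ran from 0.941 to 1.27. After thinning, 64.7% of TAC and 52.6% of sham fibroblast-like cells had a C1ra UMI (88.5% and 60.9% unthinned), against 2.60% of 346 TAC and 2 of 35 sham endothelial-like cells. C1ra and C1s1 have near-identical copies in the mouse genome (C1rb and C1s2), so reads may be split or shared between them.

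The C1 inhibitor Serping1 was detected in nearly every fibroblast-like cell: 99.4% of TAC and 99.6% of sham cells had a UMI when thinned (99.4% of TAC and 99.4% of sham cells unthinned), against 12.1% of TAC endothelial-like cells at the same depth. Its level was 3019 CPM in TAC and 2445 CPM in sham, a ratio of 1.23 (1.22 to 1.25), and the ratio was 1.10 to 1.40 in the 3 shared fibroblast clusters. Among classes of at least 50 cells in both libraries, lymphatic endothelial-like cells came next, at 600 CPM in TAC and 264 CPM in sham, a ratio of 2.27 (1.76 to 2.99). This class comes from 1 cluster in both libraries, and its fibroblast markers were at a median of 2.89% (TAC) and 3.07% (sham) of the fibroblast level, so Serping1 stood above the marker level in both. In pericyte-like cells, 83 in TAC and 43 in sham, Serping1 was at 1247 CPM in TAC and 1190 CPM in sham, C1s1 at 403 CPM in TAC and 303 CPM in sham, C1ra at 102 CPM in TAC and 59.1 CPM in sham, and C3 at 84.9 CPM in TAC and 384 CPM in sham. The pericyte-like C1s1 level was thus above the fibroblast-like one of 311 CPM in TAC and 285 CPM in sham. Fibroblast markers in TAC pericyte-like cells stood at 12.3% to 57.1% of their fibroblast level (median 22.1%). The part of fibroblast RNA in these values was not tested.

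The smallest classes held few UMIs of the members, and no counts of higher or lower members are given for them. Endocardial-like cells came mostly from different clusters, one led by Nrg1, H19 and Npr3 with 71.6% of the TAC cells and one led by Npr3, H19 and Vwf with 94.0% of the sham cells. In them Serping1 was at 145 CPM in TAC and 74.6 CPM in sham, and the other 8 members were under 30 CPM in both libraries. In B cell-like cells the C1q chains were at 147, 161 and 65.0 CPM in TAC and at 122, 194 and 48.6 CPM in sham (C1qa, C1qb and C1qc), and each of the other 6 was under 40 CPM.

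C4b, the substrate of C1s, was higher in TAC in fibroblast-like and macrophage-like cells. In fibroblast-like cells it stood at 161 CPM in TAC, from 10546 UMIs, and at 20.9 CPM in sham, from 653 UMIs, a ratio of 7.71 (7.12 to 8.35). In macrophage-like cells it stood at 295 CPM in TAC and 79.3 CPM in sham, a ratio of 3.72 (3.33 to 4.17). C4b reads may include reads from the near-identical copy C4a, which is not among the gene rows. In the 3 shared fibroblast clusters it was at 115 CPM in TAC against 27.0 CPM in sham (4.27-fold), 96.1 CPM in TAC against 10.8 CPM in sham (8.90-fold) and 134 CPM in TAC against 7.72 CPM in sham (17.4-fold, with 3 UMIs in sham). In the 2 macrophage clusters it was at 467 CPM in TAC against 80.8 CPM in sham (5.79-fold) and at 288 CPM in TAC against 60.9 CPM in sham (4.73-fold). C4b was therefore higher in TAC in each of the 5 clusters. The 3 fibroblast ones had few cells of 1 library: 65 sham, 81 TAC and 72 sham cells, in the order given. Those cells held 10, 30 and 3 C4b UMIs. The cluster led by Wisp2 and Sfrp1 held 50.9% of the C4b UMIs of TAC fibroblast-like cells. It had 10 sham cells and was not compared.

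More cells also had a C4b transcript at matched depth. Thinned to 3800 UMIs, 26.9% of 5126 TAC and 4.93% of 4927 sham fibroblast-like cells had one (42.8% and 6.52% unthinned), against 2.02% of 346 TAC endothelial-like cells and 1 of 35 sham endothelial-like cells. In macrophage-like cells at 3100 UMIs the share was 36.0% in TAC and 17.4% in sham (49.1% and 21.2% unthinned). The UMIs were concentrated: the 10% of TAC fibroblast-like cells with the most C4b held 65.2% of it. Cells of 1 library are not replicates, so these shares compare the libraries, not the conditions.

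**Figure D3:**
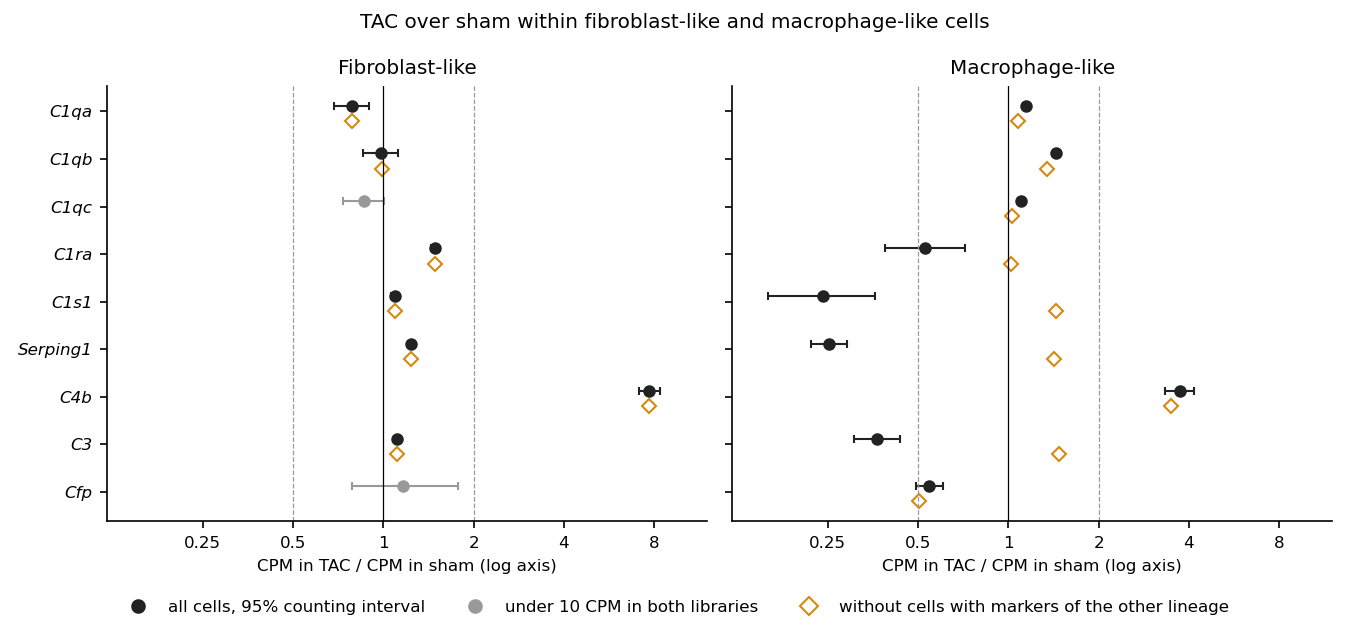
TAC over sham ratio (log axis) of each of the 9 genes in fibroblast-like and macrophage-like cells, with exact 95% intervals of counting error. Grey points are under 10 CPM in both libraries, and open diamonds leave out cells with markers of the other lineage. C4b is 7.71-fold higher in TAC fibroblast-like and 3.72-fold higher in TAC macrophage-like cells, where Serping1 (0.253) and C1s1 (0.241) lie about as far below 1 until cells with fibroblast markers are left out.

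C3 was present at 1128 CPM in TAC and 1017 CPM in sham fibroblast-like cells, a ratio of 1.11 (1.09 to 1.12). In the 3 shared clusters the ratio was 1.12 (0.997 to 1.26), 1.13 and 1.46. Its share of positive cells went the opposite way: 72.9% of TAC and 81.8% of sham cells had a C3 UMI when thinned (82.6% and 83.0% unthinned). The 10% of all fibroblast-like cells with the most C3 held 38.6% of it in TAC and 32.4% in sham, unthinned. Mesothelial-like cells, of which only 9 were in TAC and 4 in sham, had C3 at 15776 CPM in TAC (2671 UMIs) and 4518 CPM in sham (50 UMIs).

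Read against all genes, fibroblast-like cells had 1 of 7 members at 10 CPM or more at least 2-fold higher in TAC (C4b) and 0 lower, with a median log2 ratio of 0.149. Over the 8803 genes at this level, 3.33% were at least 2-fold higher and 2.64% lower, with a median of -0.064. Macrophage-like cells had 1 of 9 higher (C4b) and 3 lower (C1s1, C3 and Serping1), with a median log2 ratio of -0.866, against 2.64% higher and 4.57% lower of 8235 genes and a median of -0.068. The 3 lower ones, like C1ra at a ratio of 0.529, had most of their UMIs in fibroblast-like cells, and the cells of the 2 libraries differed in fibroblast marker content. Fibroblast markers in macrophage-like cells stood at a median of 1.78% (TAC) and 7.66% (sham) of their fibroblast level.

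Serping1 was at 46.1 CPM in TAC and 183 CPM in sham macrophage-like cells, C3 at 30.2 and 82.6 CPM, C1s1 at 5.36 and 22.2 CPM, and C1ra at 11.9 and 22.4 CPM (ratio 0.529). Leaving out the 5 TAC and 73 sham macrophage-like cells that carried fibroblast markers brought Serping1 to 20.1 CPM in TAC and 14.1 CPM in sham, C3 to 16.1 and 11.0 CPM, and C1s1 to 3.16 and 2.20 CPM, and C1ra to 7.98 and 7.81 CPM. None of these 4 then stood lower in TAC, and none of the 9 was 2-fold lower. C1s1 and C1ra were then under 10 CPM in both libraries. C4b, at 297 CPM in TAC and 84.9 CPM in sham, and Cfp, at 102 CPM in TAC and 202 CPM in sham, kept their directions in the same cells. One sub-cluster of sham macrophage-like cells, led by Dcn, Smoc2 and Gas1, had Serping1 at 1156 CPM and C3 at 510 CPM, against 10.5 and 5.27 CPM in one led by Cx3cr1, Mmp13 and Il1b.

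A cluster led by Igfbp5, Hapln1 and Pthlh held 1.34% of TAC and 27.0% of sham endothelial-like cells, and the rest of the class came from one led by Fabp4, Rbp7 and Gpihbp1. Endothelial-like cells had 0 of 7 members higher and 2 lower (C3 and C1s1), with a median log2 ratio of 0.222, against 7.5% higher and 10.1% lower of 9248 genes and a median of -0.104. C3 was at 21.5 CPM in TAC and 49.6 CPM in sham, C1s1 at 10.2 and 30.7 CPM and Serping1 at 72.5 and 94.4 CPM. The C1q chains, at 16.0, 16.7 and 12.3 CPM in TAC and 11.8, 14.2 and 7.08 CPM in sham, and C1ra, at 14.3 and 11.8 CPM, had intervals of the ratio that spanned 1. Inside the Fabp4-led cluster the ratio was 0.467 (0.329 to 0.678) for Serping1, 0.251 for C3 and 0.202 for C1s1, and those of C1qa, C1qb, C1qc and C1ra turned to 0.770, 0.820, 0.948 and 0.703, with intervals that spanned 1. The fibroblast markers in these cells stood at 3.14% (TAC) and 5.49% (sham) of the fibroblast level. Lymphatic endothelial-like cells had 1 of 7 higher (Serping1) and the 3 C1q chains lower, with a median log2 ratio of -0.776, against 10.4% higher and 9.62% lower of 9229 genes and a median of -0.082. C3 was at 122 CPM in TAC and 88.0 CPM in sham of this class, a ratio of 1.39 (0.883 to 2.30), and C1ra, C1s1 and C4b were each at or under 22.0 CPM in both libraries. The sham classes are small and the directions there depend on the cell filters, as given in the closing section.

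Within fibroblast-like cells the members were not spread evenly. Over the TAC fibroblast clusters C4b ran from 40.9 to 500 CPM, C3 from 386 to 2373 CPM and Serping1 from 2335 to 4267 CPM. A cluster led by Wisp2 and Sfrp1, with 16.0% of TAC fibroblast-like cells, held 50.9% of C4b UMIs and 34.6% of C3 UMIs. In sham the range was 7.20 to 50.2 CPM for C4b and 694 to 1658 CPM for C3.

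**Figure D4:**
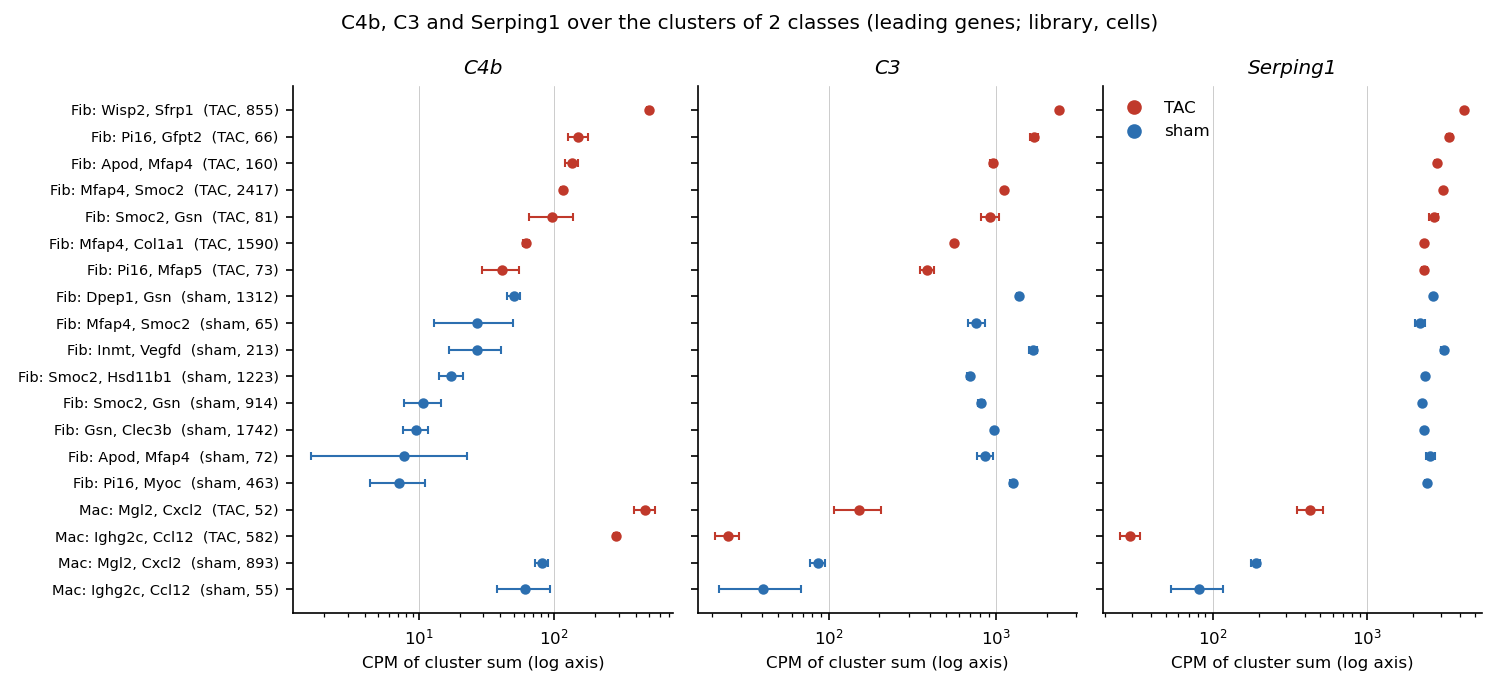
Level (CPM, log axis) of C4b, C3 and Serping1 in each fibroblast and macrophage cluster, TAC and sham. C4b spans 40.9 to 500 CPM over the TAC fibroblast clusters, a wider range than Serping1.

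Fibroblast-like cells were also clustered by themselves, without complement genes. A TAC sub-cluster led by Tmem176a, Apod and Serpina3n had C4b at 286 CPM, C3 at 1831 CPM, C1ra at 410 CPM, C1s1 at 425 CPM and Serping1 at 3785 CPM. One led by Cst6, Postn, Dio2, Tgfb1 and Ltbp2 had C4b at 43.9 CPM, C3 at 526 CPM, C1ra at 212 CPM, C1s1 at 213 CPM and Serping1 at 2388 CPM. All 5 genes were thus lower in the Postn-led than in the Tmem176a-led sub-cluster. Low levels were also seen in one led by Comp, Thbs4 and Fmod, with C4b at 89.1 CPM, C3 at 492 CPM and Serping1 at 2234 CPM. Another, led by Cma1, Abhd2 and Spp1, had 157 cells at a median of 1937 UMIs. Its C4b was at 32.2 CPM and its C3 at 393 CPM. A sub-cluster led by Cxcl10, Ifit3 and Isg15, genes that interferon induces, had C4b at 122 CPM and C3 at 856 CPM. Both lay between the Tmem176a-led and the Postn-led values.

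Cells were then divided by single genes, with every cell thinned to 3800 UMIs. TAC fibroblast-like cells with a Postn UMI (periostin, a marker of activated fibroblasts) had 0.453 times the C4b, 0.510 times the C3, 0.665 times the C1s1, 0.697 times the C1ra and 0.764 times the Serping1 of cells without one. Sham cells had ratios of 0.395, 0.441, 0.476, 0.664 and 0.804 for the same genes, from 195 Postn-positive cells and 6 C4b UMIs. This was not particular to Postn. With Pi16 or Dpp4 the same genes also lay below 1 in both libraries, though for sham Serping1 (0.985) the interval spanned 1. This gate took in most cells, 4306 with and 820 without in TAC and 3670 and 1257 in sham. With it C4b was at 0.520 in TAC and 0.309 in sham, and C3 at 0.694 and 0.931. With Comp or Thbs4 they lay below 1 in TAC (C4b 0.575, C3 0.606), but in sham C4b was at 6.52. That sham value rests on 79 cells with 36 C4b UMIs. Unthinned, single cells held 37, 14 and 11 of the 69 C4b UMIs of such cells. Cells with Mt1 or Mt2 went the other way, at 1.51 for C4b and 1.48 for C3 in TAC. Cells with the chemokine Ccl11 had more in both libraries. In TAC they had 2.16 times the C4b and 1.88 times the C3, from 51 cells. In sham they had 1.32 times the C4b (1.004 to 1.72) and 1.19 times the C3, from 729 cells. Cells with Ifit3 or Isg15 differed little, with 1.08 times the C4b and 1.06 times the C3 in TAC.

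**Figure D5:**
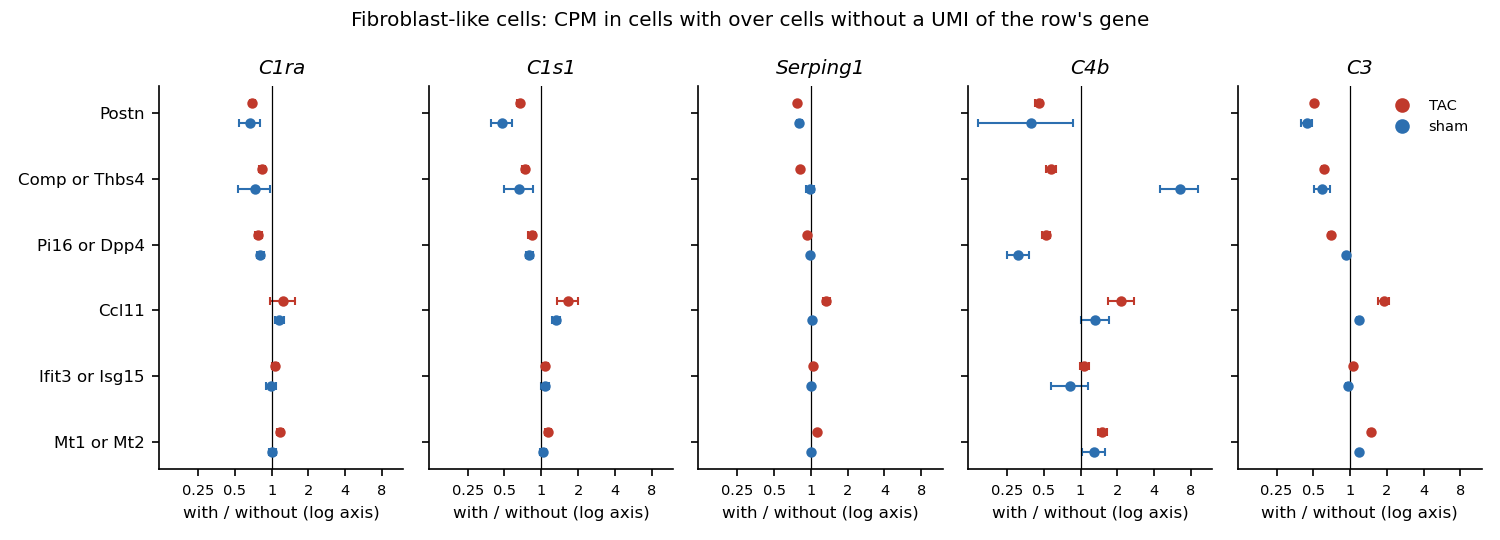
Ratio (log axis) of C4b, C3, C1ra, C1s1 and Serping1 in thinned fibroblast-like cells with against without a UMI of a gating gene, within each library, TAC and sham, with 95% intervals. All 5 genes lie below 1 in Postn-positive fibroblast-like cells of both libraries. They also do so in those with Pi16 or Dpp4, where the interval of sham Serping1 spans 1.

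The fibroblast genes varied together over cells to different degrees. In TAC fibroblast-like cells Spearman's rho at equal depth was 0.514 for C3 and Serping1 and 0.428 for C3 and C4b, and the lowest of the 10 pairs was C1ra and C4b at 0.185. In sham it was 0.262 for C3 and Serping1 and 0.107 to 0.167 for the other 5 pairs, which leave out C4b. These are descriptions over cells of 1 library.

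Macrophage C4b was also uneven. Thinned TAC cells with a UMI of Timd4, a marker of resident macrophages, had C4b at 571 CPM, against 239 CPM in cells without it (2.39-fold), and sham cells at 115 and 66.2 CPM (1.74-fold). TAC cells with Ccr2, a receptor of recruited monocytes, had C4b at 98.1 CPM, against 347 CPM without it, and sham cells with Ccr2 at 8.64 CPM (3 UMIs), against 94.0 CPM without it. C4b was also lower in cells with H2-Ab1, an antigen-presentation gene, at 199 against 445 CPM in TAC and 68.5 against 125 CPM in sham. In sham, Cfp was 1.66-fold higher with Timd4, and 0.617 and 0.568 times as high with Ccr2 and H2-Ab1, while in TAC the same ratios were 1.22, 1.01 and 0.890.

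Of the 49 other complement genes, 10 reached 10 CPM in fibroblast-like cells. None was 2-fold higher in TAC and 3 were lower (3.33% and 2.64% of all genes), with a median log2 ratio of 0.048. The lower ones were Cd55, a membrane protein that dismantles the C3-cleaving enzymes, at 145 CPM in TAC and 309 CPM in sham, and C7 and Cfhr2, named here after their values were seen. Lrp1, a scavenger receptor, was at 792 CPM in TAC and 501 CPM in sham. Macrophage-like cells had 17 at this level, 2 higher and 3 lower (2.64% and 4.57% of all genes), with a median of -0.022. The higher ones, C2 (26.0 CPM in TAC, 8.10 CPM in sham) and Itgax (14.8 and 3.95 CPM), were named after their values were seen, and the lower ones were Colec12, Cd55 and Fcna. Fibroblast-like cells held 93.8% of Cd55 and 89.1% of Colec12 UMIs in sham. The part of fibroblast RNA in the macrophage-like values of these genes was not tested. Of the anaphylatoxin receptors, C5ar1 was at 835 CPM in TAC and 668 CPM in sham, and C3ar1 at 319 CPM in TAC and 340 CPM in sham. The complement receptor Vsig4 was at 85.1 CPM in TAC and 132 CPM in sham. Calr, Lrp1, C1qbp, Cr1l, Cd93, Itgam and Itgb2 had ratios of 0.882 to 1.25 in this class, and in fibroblast-like cells Calr, Cr1l, C1qbp and Colec12 had ratios of 1.01 to 1.26. Lymphatic endothelial-like cells had 16 at 10 CPM or more, with 4 higher (C5ar1, Cd59a, Cd93 and Lrp1) and 2 lower (C3ar1 and Vtn). Over all genes of this class 10.4% were higher and 9.62% lower. But C5ar1 and Cd59a had 1 sham UMI each and Lrp1 and Vtn 4 each, and the intervals of these 4 ratios spanned 1. Clu, a fluid-phase regulator, was at 98.4 CPM in TAC and 696 CPM in sham endothelial-like cells. The Igfbp5-led cluster held 1.34% of the TAC and 27.0% of the sham cells of this class, and its part in the Clu values was not tested.

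Among other genes, those whose levels were most like each member's over 13 class sums of 7 classes matched the class split. Lyz2 (r = 0.99) was the closest to C1qa and Fcer1g (r = 0.99) to C1qb, both myeloid genes, and Fcgr3, an Fc receptor, to C1qc (r = 0.98). Loxl1, an enzyme that cross-links elastin, was the closest to C1ra (r = 0.98) and Pla1a to C1s1 (r = 0.97). Sox9 was the closest to C3 (r = 0.96), Gna15 to Cfp (r = 0.97) and Fxyd1 to Serping1 (r = 0.97). The closest to C4b was Tgfbr1, a receptor of TGF-beta, at a lower r of 0.91. Classes of 1 library are not independent, so these values describe likeness only.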

How the data were processed

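The values used are UMI counts per gene and cell barcode, deposited by the authors as filtered matrices; per the file headers the counting tool was Cell Ranger 3.1.0, and the submitters' processing notes name the build mm10 and, without a role, Seurat. Totals were 96003109 UMIs in TAC and 42490230 in sham, and levels rest on 1 library per group. Cells under 500 genes or 1000 UMIs, or over 15% mitochondrial UMIs, and doublets called by Scrublet (Scanpy 1.11.5) were left out: 901 TAC and 462 sham barcodes by the filter and 146 and 70 as doublets. The rest were clustered together on 2000 variable genes and 30 principal components (15 neighbours, Leiden resolution 1), with all complement genes kept out. Clusters were named from 20 marker lists by a rule settled after the clusters were seen. UMIs of a class were summed, scaled to CPM of the class total, and compared as log2((CPM + 1) ratio). A member was counted as higher or lower at 2-fold or more with 10 CPM in either library. Intervals are exact (Poisson for levels, Clopper-Pearson for shares, conditional for ratios) and UMI sums of cells are not replicates. To compare shares of cells with a UMI, cells were thinned to 1 depth per class. The members and lists were chosen with earlier results of these data known. By rule, all 9 members are named, and other complement genes are drawn from those with 50 CPM or more in a class, plus genes behind a count of 2-fold differences, and the 3 most alike genes per member were ranked by Pearson's r on log2(CPM + 10), of which the closest are printed. Gene positions came from the GENCODE annotation by identifier (30934 of 31053 matched). The steps for ratios were tested on simulated data. TMM factors came from edgeR 4.0.16, as an alternative scaling, with no test. Protein sequences are not used here. One gene of the other complement lists is not reported here.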

Additional observations from a re-analysis of the deposited data

Results flagged for a closer look

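For 5 genes the TAC over sham ratio lay on opposite sides of 1 in fibroblast-like and macrophage-like cells with an interval that left out 1 in both, a difference that was not tested. C1qa was at 0.784 in fibroblast-like and 1.15 in macrophage-like cells. C1ra was at 1.49 and 0.529, C1s1 at 1.09 and 0.241, C3 at 1.11 and 0.365, and Serping1 at 1.23 and 0.253 in the same order of classes. Fibroblast markers in macrophage-like cells stood at a median of 1.78% (TAC) and 7.66% (sham) of the fibroblast level. Without the cells that carried them, C3 and Serping1 had a higher level in TAC macrophage-like cells, with no interval given. C1s1 was then under 10 CPM in both libraries, too low to be counted as higher or lower.

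Fibroblast-like cells with Comp or Thbs4, over those without, had 0.575 times the C4b in TAC and 6.52 times the C4b in sham, a difference in direction that was not tested. The sham value rests on 79 thinned cells with 36 C4b UMIs. Unthinned, the 107 sham cells held 69 C4b UMIs at a level of 112 CPM. Single cells of different clusters held 37, 14 and 11 of these UMIs. Without the cell with 37 UMIs alone, the level was 52.8 CPM. Macrophage-like cells with Timd4, over those without, had 2.59 times the Serping1 in TAC and 0.686 times in sham, also untested, with 14 Serping1 UMIs in the 48 TAC cells with Timd4.

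C3 in mesothelial-like cells, a class too small for the comparisons, stood at 15776 CPM in TAC and 4518 CPM in sham. Cells in unnamed clusters held 49.9% of C1qa UMIs in TAC and 32.4% in sham.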

How the results depend on the processing

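No paired analysis was possible because each group has 1 library and the results come from no test. C4b kept its sign under all 13 settings that give a ratio, with log2 ratios of 2.47 to 2.97 in fibroblast-like and 1.69 to 2.58 in macrophage-like cells, as did C1ra in fibroblast-like cells (0.55 to 0.64) and C1qb (0.37 to 0.62) and Cfp (-1.30 to -0.53) in macrophage-like cells. The counts of members past 2-fold in the smaller classes did not. With no cell filter, macrophage-like cells had 1 lower, endothelial-like cells 4 higher and 0 lower, and lymphatic endothelial-like cells 4 higher and 0 lower. With the stricter cell filter these were 2 higher and 0 lower, 3 higher and 1 lower, and 3 higher and 0 lower. With doublets kept, 1 macrophage member was lower and lymphatic endothelial-like cells had 0 higher and 1 lower. With each cell gated on its own, fibroblast-like cells had 2 lower, macrophage-like 2 higher and 0 lower, endothelial-like 6 higher and 0 lower and lymphatic endothelial-like 2 higher and 0 lower. With libraries clustered separately, 0 macrophage members were lower, 4 endothelial were lower and 2 lymphatic endothelial were higher. Endothelial-like cells had 1 higher at resolution 0.5, 5 lower at resolution 2.0, 1 higher at equal depth, 1 lower with a pseudocount of 10 CPM, and 1 higher and 1 lower as the mean of CPM per cell, where lymphatic endothelial-like cells had 0 lower. Leaving out cells with markers of another lineage left 0 macrophage members lower. The macrophage-like cells left out were chosen by their fibroblast markers, and marker levels in the remaining cells were not computed. The cause was not tested for this setting or for the others. Directions of members called 2-fold turned over in these log2 ratios. With no cell filter, endothelial-like C1s1 was 0.25 and C3 2.19, and lymphatic endothelial-like C1qa was 1.03, C1qb 1.00 and C1qc 2.57. With the stricter filter, macrophage-like C1s1 was 0.81, C3 0.74 and Serping1 0.40, and lymphatic endothelial-like C1qa was 2.15, C1qb 4.52 and C1qc 4.08. With each cell gated on its own, macrophage-like C1s1 was 1.03, C3 0.84 and Serping1 0.60, endothelial-like C1s1 0.72 and C3 2.17, and lymphatic endothelial-like C1qc 0.21. With libraries clustered separately, macrophage-like C3 was 0.024 and Serping1 0.65. Without cells with markers of another lineage, macrophage-like C1s1 was 0.38, C3 0.52 and Serping1 0.48. Members under 2-fold also changed sign: the log2 ratio of C1ra in macrophage-like cells ran from -0.87 to 0.59, that of Serping1 in endothelial-like cells from -0.50 to 1.48 and of C1qa there from -3.90 to 4.45, and that of C1s1 in lymphatic endothelial-like cells from -0.62 to 0.49, with 8 or 9 of 13 settings on the side of the main value. With 148 sham endothelial-like and 72 sham lymphatic endothelial-like cells, depth limits what those classes can show.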
